A study of Rattus norvegicus with 6 samples.

Results

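The genes described here are 5 classical targets of the glucocorticoid receptor, Sgk1, Tsc22d3, Fkbp5, Zbtb16 and Hsd11b1, chosen by name and kept whatever their level. All 5 were among the 22573 gene rows used. They were followed in cells of the nucleus pulposus, the soft centre of the disc between vertebrae, from Sprague Dawley rats. RNA sequencing compared 3 libraries of cells under cyclic tensile strain (CST), stretched by 18% at 0.2 Hz over 24 h on a Flexcell device, with 3 control libraries. The series asks how such strain affects genes related to the circadian clock. The stretching protocol is written on all 6 samples, so the controls are unstretched only by their class label. The labels give no age, no glucocorticoid treatment, no serum or hormone content of the medium and no shared animal or culture, so the p-values reflect the spread of these libraries alone, part or all of which may be technical.

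Glucocorticoids cross the membrane and bind a receptor, encoded by Nr3c1, that waits in the cytosol with HSP90 and its co-chaperones. The bound receptor enters the nucleus, where it activates genes at glucocorticoid response elements (GREs) and dampens inflammatory transcription. SGK1 is a kinase that controls ion channels and cell survival, GILZ (from Tsc22d3) is an anti-inflammatory leucine zipper protein, FKBP51 (from Fkbp5) is a co-chaperone that lowers the receptor's hormone affinity, PLZF (from Zbtb16) is a transcriptional repressor, and 11β-HSD1 (from Hsd11b1) regenerates active hormone inside the cell.

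Under CST, Sgk1 was lower by 60.3% and Hsd11b1 by 19.3%, as ratios of mean FPKM (fragments scaled to transcript length and library), and both fell by the test used. The deposited values carry no unit and were taken to be FPKM. Tsc22d3 and Fkbp5 were not called, and Zbtb16 lay near 0 in every library. In bulk RNA, fewer cells of a type and less RNA per cell cannot be told apart. Of the 4 genes that passed the filter of a mean of 1 FPKM over the 6 libraries, 2 were called lower and 0 higher. Among all 10180 genes tested, 35.4% were called in either direction and 19% were called lower (limma, Benjamini-Hochberg adjusted p under 0.05). The median log2 fold change, on the log2(FPKM + 1) scale used throughout, was -0.35 for these 4 genes and -0.01 for all tested genes.

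The RefSeq promoter table of the GRCr8 rat assembly, which holds windows of 250 bases before to 50 bases after annotated starts, matched 3 of the 5 genes. It gave 3 windows for Sgk1, 3 for Tsc22d3 and 1 for Fkbp5, all on the minus strand. A search on both strands looked for the full GRE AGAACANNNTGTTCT, found in 0.0149% of all 33469 windows, its relaxed form GNACANNNTGTNC, found in 0.439%, and the half-site AGAACA, found in 20.7%. None of the 3 was matched in any of the 7 windows, which says only that these letters are not in these windows. A full site is also a relaxed site and holds half-sites. The TATA box letters TATAAA, found in 14.2% of all windows, were matched in 2 Sgk1 windows and 1 Tsc22d3 window. They began at -55 and -33 from the annotated start in Sgk1 windows 1 and 3, and at -44 in Tsc22d3 window 3. Whether they act as TATA boxes was not tested. An AP-1 site TGANTCA, found in 7.33%, was matched in the other Sgk1 window, and the cAMP response element TGACGTCA, found in 1.83%, was matched in none. The 3 windows with TATAAA and the Fkbp5 window, which lacks it, are shown. They set the gene that changed most beside 2 that were not called. Capitals mark TATAAA. The deposited value is 1 per gene, so which start was used is unknown. The windows span chr1:24807182-24807481 and chr1:24804782-24805081 for Sgk1, chrX:109009985-109010284 for Tsc22d3 and chr20:6543506-6543805 for Fkbp5.
Sgk1, window 1: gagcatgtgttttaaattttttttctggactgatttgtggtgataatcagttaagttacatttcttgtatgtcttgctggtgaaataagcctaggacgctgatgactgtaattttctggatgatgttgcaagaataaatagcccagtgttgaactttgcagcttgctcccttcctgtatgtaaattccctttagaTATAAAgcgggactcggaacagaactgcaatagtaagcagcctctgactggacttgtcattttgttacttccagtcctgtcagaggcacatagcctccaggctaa
Sgk1, window 3: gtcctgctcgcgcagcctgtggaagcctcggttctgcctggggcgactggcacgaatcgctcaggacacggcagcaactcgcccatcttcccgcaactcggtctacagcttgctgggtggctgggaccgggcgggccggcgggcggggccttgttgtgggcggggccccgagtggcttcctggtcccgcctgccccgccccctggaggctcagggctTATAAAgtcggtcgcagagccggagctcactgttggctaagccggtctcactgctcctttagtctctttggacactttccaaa
Tsc22d3, window 3: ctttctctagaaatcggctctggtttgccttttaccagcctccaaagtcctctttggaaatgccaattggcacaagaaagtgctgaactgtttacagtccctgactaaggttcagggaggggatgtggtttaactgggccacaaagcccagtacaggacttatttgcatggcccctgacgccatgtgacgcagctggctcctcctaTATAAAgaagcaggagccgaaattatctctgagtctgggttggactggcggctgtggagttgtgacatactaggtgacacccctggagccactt
Fkbp5, window 1: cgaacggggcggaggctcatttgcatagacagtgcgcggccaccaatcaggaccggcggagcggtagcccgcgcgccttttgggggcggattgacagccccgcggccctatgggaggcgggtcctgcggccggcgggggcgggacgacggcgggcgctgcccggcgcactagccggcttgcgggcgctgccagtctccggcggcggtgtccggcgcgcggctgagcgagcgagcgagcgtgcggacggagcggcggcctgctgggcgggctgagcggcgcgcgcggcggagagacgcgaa
The GC content of these windows was 40.7% and 66% for Sgk1, 50.7% for Tsc22d3 and 77% for Fkbp5.

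Sgk1, the kinase gene, had 3.97, 3.83 and 3.45 FPKM in the CST libraries, against 9.23, 12.7 and 6.36 FPKM in the controls. Every CST library lay below every control, and the controls spread far more widely than the CST libraries. Its means were 3.75 ± 0.27 FPKM under CST and 9.44 ± 3.19 FPKM in controls (SD, n = 3 each). Its log2 fold change was -1.09 ± 0.20 (SE; 95% interval -1.54 to -0.65; limma adjusted p = 0.0031), a 2.52-fold fall in mean FPKM. Non-overlapping groups were found in 51.9% of all tested genes, and in 28% with CST lower.

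Hsd11b1, the gene of the enzyme that turns inert 11-keto steroid into active hormone, was the most abundant of the 5. It had 114, 102 and 110.1 FPKM in the CST libraries, against 149, 123 and 132 FPKM in the controls. The groups did not overlap, but the lowest control lay only a little above the highest CST library. Its log2 fold change was -0.30 ± 0.10 (SE; limma adjusted p = 0.043), a 1.24-fold fall. That call was lost in 7 of 14 alternative settings, with adjusted p from 0.040 to 0.17 over all 14, among them leaving out control replicate 1 (0.17), CST replicate 2 (0.13), control replicate 3 (0.096) or CST replicate 1 (0.066).

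Tsc22d3, the GILZ gene, had 18.8, 15.6 and 17.7 FPKM in the CST libraries, against 25.8, 28.3 and 16.6 FPKM in the controls. Control replicate 3 lay inside the CST range, and the other 2 controls lay above it. The log2 fold change was -0.39 ± 0.18 (SE; 95% interval -0.79 to 0.01; limma adjusted p = 0.12). Without control replicate 3 it was -0.61 and passed (limma adjusted p = 0.0065), so 1 library decides this call.

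Fkbp5, usually among the genes most strongly induced by the receptor, had 2.29, 2.08 and 2.54 FPKM in the CST libraries, against 2.54, 2.53 and 2.31 FPKM in the controls. The groups overlapped fully, and the log2 fold change was -0.07 ± 0.10 (SE; 95% interval -0.30 to 0.16; limma adjusted p = 0.63). That interval does not reach the size of the Sgk1 change, but the difference between the 2 genes was not tested.

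Zbtb16, the PLZF gene, was listed at 0 in CST replicate 1 and control replicate 2. It stood at 0.0057 and 0.023 FPKM in CST replicates 2 and 3, and at 0.0056 and 0.0057 FPKM in control replicates 1 and 3. The value in CST replicate 3 was 4.05 times the smallest value above 0, and the other values above 0 were nearly equal to that smallest one. At such levels no difference was detectable, and limma without a filter gave an adjusted p = 0.78, with 23.3% of 16152 genes called.

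**Figure D1:**
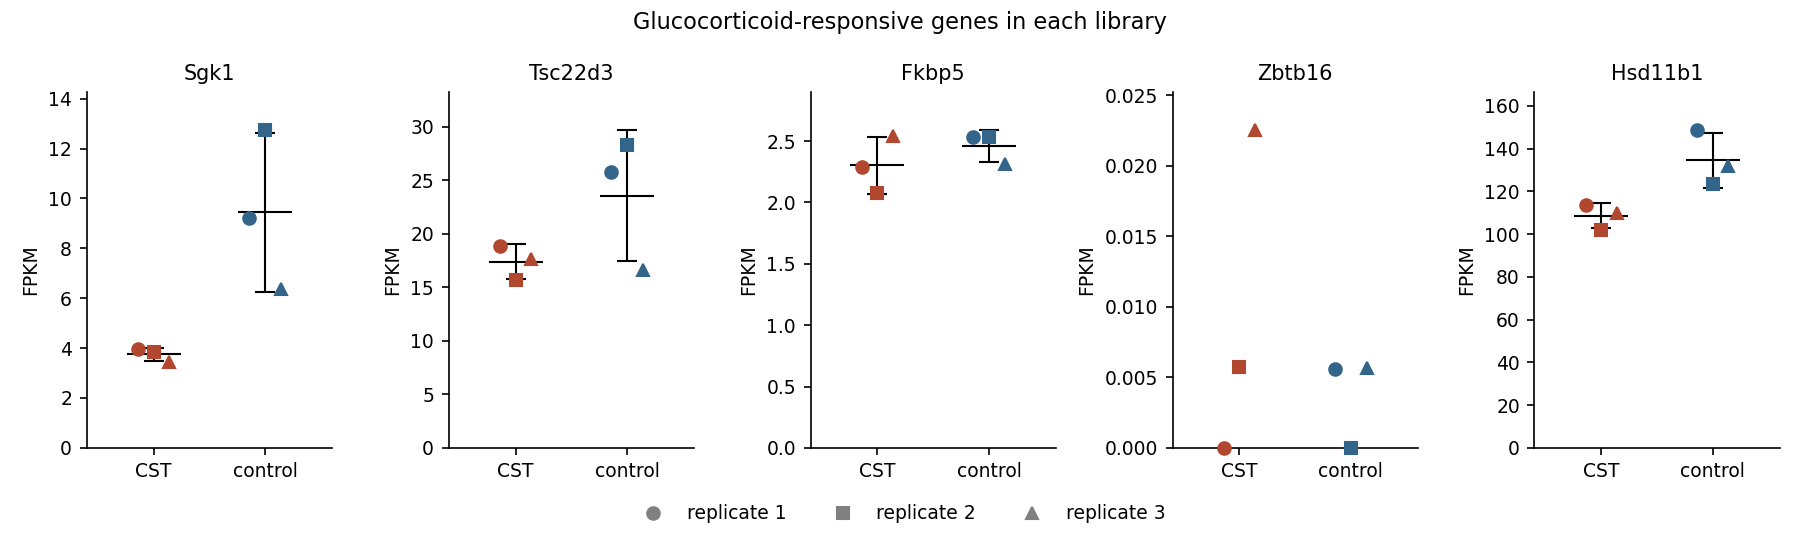
FPKM of the 5 glucocorticoid-responsive genes in each library, with CST at the left and control at the right of each panel; points are libraries, the long bar is the mean and the whiskers are 1 SD (n = 3), left out for Zbtb16. Sgk1 and Hsd11b1 do not overlap between groups, control replicate 3 of Tsc22d3 falls among the CST libraries, and Zbtb16 stays at or below 0.023 FPKM.

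Across the processing alternatives (other pseudocounts, filters, scalings and variance models, a replicate block and each library left out), the sign of each of the 4 tested members stayed negative.

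**Figure D2:**
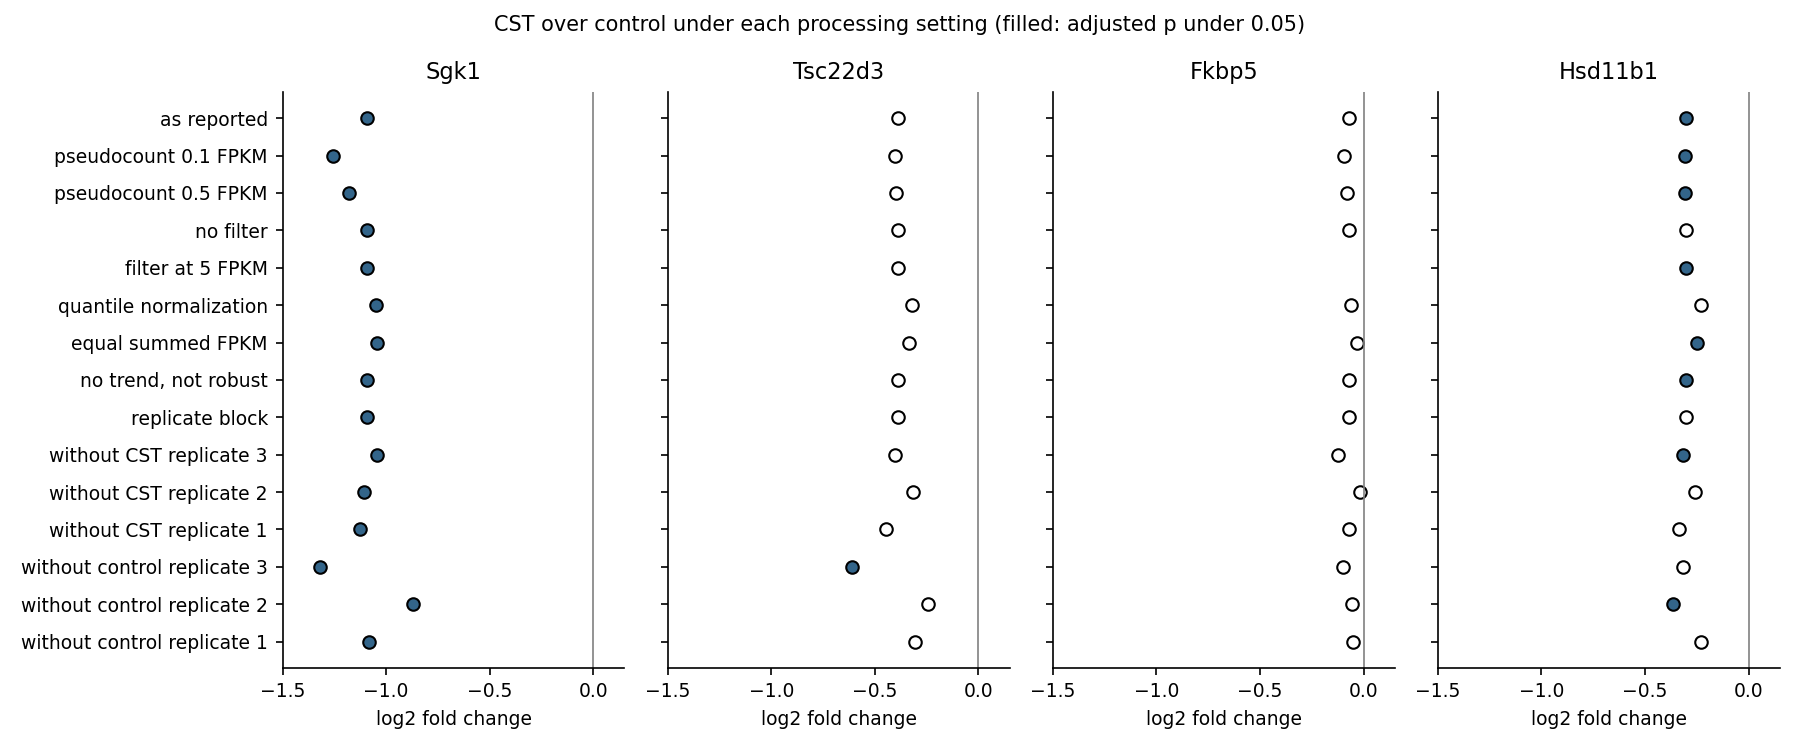
Log2 fold change, CST over control, of the 4 tested members under the reported and each alternative setting; filled points have a limma adjusted p under 0.05. Sgk1 is filled in all settings (-1.32 to -0.87), Hsd11b1 is open in 7 alternatives, Tsc22d3 is filled only without control replicate 3, and Fkbp5 is open throughout and untested at a filter of 5 FPKM.

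The order of levels was the same in 6 of 6 libraries: Hsd11b1, then Tsc22d3, Sgk1, Fkbp5 and Zbtb16, on the FPKM scale, which accounts for transcript length. No library of one gene reached the range of its neighbour in that order, within either group. Averaged over all 6 libraries, Hsd11b1 ranked 420 among the 10180 tested genes, Tsc22d3 2492, Sgk1 5687 and Fkbp5 8612. Across the 6 libraries the Pearson correlation of log2(FPKM + 1) was 0.87 between Sgk1 and Tsc22d3 and between 0.53 and 0.71 for the other 5 pairs, a description in which the group difference and the shared libraries both enter.

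The genes with profiles most like each member over the 6 libraries were found by the same correlation. Symbols starting LOC, RGD, AABR or MGC were left out of this search and of its counts. For Sgk1 they were Zxdb, Klf5 and Stard13 (r = 0.998, 0.997 and 0.995), and 210 tested genes reached 0.95. For Tsc22d3 they were the apoptosis inhibitor gene Bcl2l1 (r = 0.995), Gins4 (0.989) and Gypc (0.985), with 39 genes at 0.95 or more. For Fkbp5 they were Emc6, Stard3 and Znhit2 (r = 0.999, 0.997 and 0.997), with 43 such genes. For Hsd11b1 they were the glucose transporter gene Slc2a1 (r = 0.995), Dazap2 (0.993) and Ercc4 (0.991), with 102 such genes. Slc2a1 stood at 113, 93.0 and 106 FPKM under CST and at 253, 155 and 179 FPKM in controls. With 6 points such values are a description only.

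The receptor gene Nr3c1 fell under CST. It had 11.1, 10.5 and 8.48 FPKM in the CST libraries, against 18.3, 17.8 and 17.2 FPKM in the controls, which were tightly grouped. Its log2 fold change was -0.77 ± 0.11 (SE; limma adjusted p = 0.00087). Nr3c2, the mineralocorticoid receptor that binds the same hormones, averaged 1.20 ± 0.14 FPKM under CST and 1.18 ± 0.21 FPKM in controls (log2 fold change 0.01, 95% interval -0.24 to 0.27; limma adjusted p = 0.94), and its sign turned in 4 settings that leave out 1 library. Of 18 tested genes for the receptors, their chaperones and coregulators, 7 were called lower, 0 higher and 11 neither, with a median log2 fold change of -0.23. Over all tested genes, 19% were called lower and 16.4% higher. The acetyltransferase gene Crebbp fell 1.62-fold, the HSP90 co-chaperone genes Ptges3 and Ppid fell 1.32-fold and 1.29-fold, and the other falls were Hsp90aa1, Ep300 and Stip1. After quantile normalization 2 genes of this list were called higher and after scaling to equal summed FPKM 1 was, and without control replicate 3 the count of falls was 4.

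Genes that act on the hormone before it meets the receptor were few in these cells. Hsd11b2, whose enzyme inactivates the hormone, lay between 0 and 0.14 FPKM under CST and between 0 and 0.038 FPKM in controls. H6pd, which supplies NADPH to 11β-HSD1 in the endoplasmic reticulum, averaged 10.9 ± 0.62 FPKM under CST and 9.82 ± 0.20 FPKM in controls, and was not called (limma adjusted p = 0.23). Of the 12 genes listed for corticosteroid synthesis and interconversion 10 were in the files and 4 were tested. The 1 call among them was Star, the cholesterol carrier of mitochondria, where 35.4% of all tested genes were called. Star rose to 2.95 ± 0.41 FPKM under CST, against 0.50 ± 0.38 FPKM in controls. Srd5a1 averaged 1.07 ± 0.11 FPKM under CST and 1.42 ± 0.15 FPKM in controls, and was not called. Nor was Srd5a3 (16.7 ± 1.33 FPKM under CST, 17.5 ± 0.99 FPKM in controls). Both were listed by their steroid reductase family name, and action of their products on the hormone was not tested. Of the enzymes that make the hormone from cholesterol, Cyp21a1 and Cyp17a1 were listed at 0 in all 6 libraries. Cyp11a1 was at or below 0.20 FPKM and Cyp11b2 at or below 0.32 FPKM. Cyp11b1 and Hsd3b1 had no row under those symbols among the rows used.

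Other genes that glucocorticoids induce in many cell types moved both ways. Of 26 listed, 25 were in the files and 18 were tested. Of these 18, 8 were called lower, 4 higher and 6 neither, with a median log2 fold change of -0.36. Among those under the filter, Crispld2 was higher without overlap (1.36 ± 0.20 FPKM under CST, 0.40 ± 0.06 FPKM in controls). Limma without a filter gave it an adjusted p = 0.0025, with 23.3% of 16152 genes called. The others under the filter overlapped between groups. Of all tested genes, 19% were called lower and 16.4% higher. Nfkbia, the inhibitor of NF-kB, fell 3.19-fold to 60.1 ± 17.2 FPKM under CST, against 192 ± 22.1 FPKM in controls. Errfi1, an inhibitor of the EGF receptor, fell 3.57-fold, and Zfp36, whose protein destabilises cytokine mRNAs, fell 1.66-fold. The other falls were Dusp1, Klf15, Bcl6, Per1 and the metallothionein gene Mt1. Angptl4, an inhibitor of lipoprotein lipase, rose to 27.2 ± 1.54 FPKM under CST, against 10.7 ± 0.63 FPKM in controls (log2 fold change 1.27 ± 0.09 SE; limma adjusted p = 3.7e-05). Cebpd, a transcription factor gene, rose 2.45-fold, and Anxa1 and Glul rose too. Several of these genes also answer to NF-kB, MAP kinases or hypoxia, and how much of any change belongs to the hormone was not tested.

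**Figure D3:**
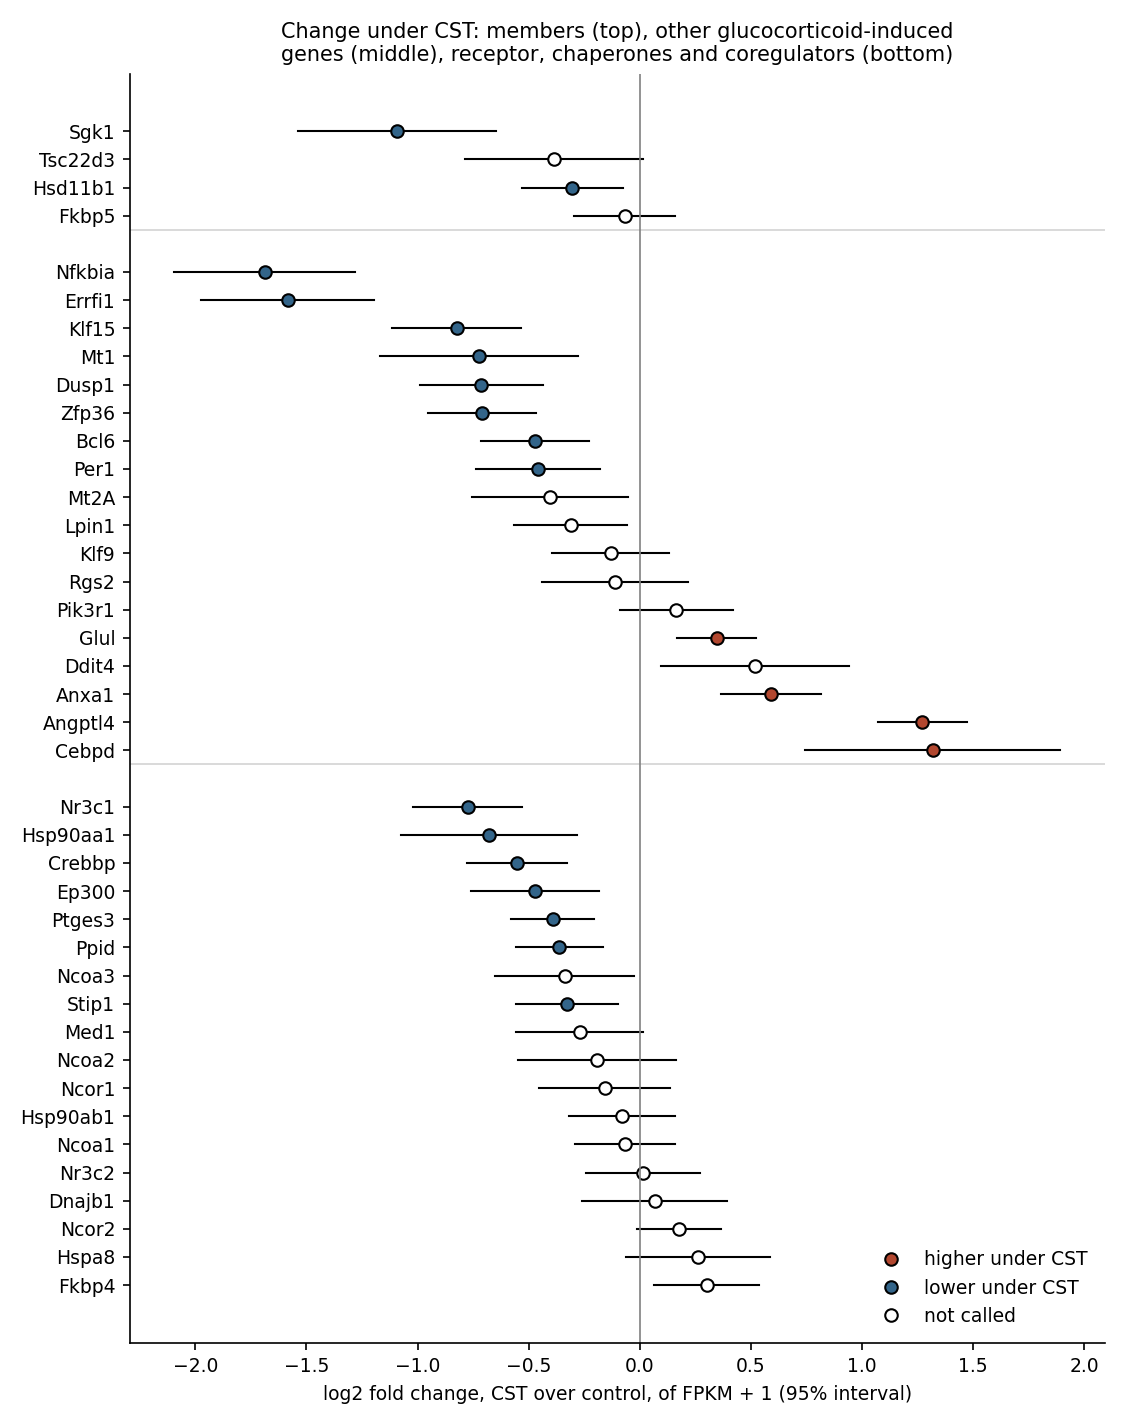
Log2 fold change of FPKM + 1, CST over control, with 95% intervals from limma, for the 4 tested members, 18 other glucocorticoid-induced genes and 18 genes of the receptors, chaperones and coregulators; filled points passed an adjusted p of 0.05. Sgk1 and Hsd11b1 lie left of 0 among the members, and the induced genes run from Nfkbia at -1.69 to Cebpd at 1.32.

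Inflammatory genes that the receptor is known to repress were also lower: 11 of 11 tested fell, where 19% of all tested genes were called lower. Their median log2 fold change was -3.92. The 4 with the smallest p were Cxcl1, which fell 4.20-fold, Mmp3 (18.3-fold), Mmp13 (4.44-fold) and Ccl2 (2.53-fold). Il6 was listed at 0 in all 6 libraries. This list was chosen with the fall of inflammatory genes in these libraries already known, so its direction is not independent evidence.

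Among relatives and partners of SGK1, the paralogous kinase gene Sgk3 rose to 2.60 ± 0.26 FPKM under CST, against 1.65 ± 0.10 FPKM in controls (log2 fold change 0.44 ± 0.10 SE; limma adjusted p = 0.0097). Sgk2 was at or below 0.072 FPKM in every library. Of 13 tested relatives, activators and substrates, 3 were called higher, 1 lower and 9 neither, where 35.4% of all tested genes were called. Ndrg2, whose product is an SGK1 substrate, rose 2.16-fold. Ndrg1, whose product is a substrate too, was not called (18.6 ± 0.83 FPKM under CST, 38.4 ± 19.9 FPKM in controls; limma adjusted p = 0.081), although the groups did not overlap. Nedd4, a ubiquitin ligase gene, rose 1.28-fold (lost in 4 of 14 settings), and Rictor, a subunit of the mTORC2 complex that phosphorylates SGK1, fell 1.46-fold (lost in 10 of 13).

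Within each library, the ratio of Sgk1 to Sgk3 was 1.53, 1.34 and 1.47 under CST, against 5.95, 7.26 and 3.91 in controls. Such a ratio does not depend on the scaling of a library. The ratio of Fkbp4, the co-chaperone that favours receptor transport, to Fkbp5, its antagonist, was 7.58, 8.88 and 8.26 under CST, against 6.41, 5.37 and 6.80 in controls. The ratio of Nr3c1 to Nr3c2 averaged 8.48 ± 1.76 under CST and 15.4 ± 2.69 in controls, and that of Hsd11b1 to H6pd 9.96 ± 0.90 under CST and 13.7 ± 1.42 in controls. The ratio of Sgk1 to Tsc22d3 averaged 0.217 ± 0.025 under CST and 0.397 ± 0.048 in controls. The ratio of Hsd11b1 to Fkbp5 was 49.6, 49.1 and 43.3 under CST, against 58.6, 48.6 and 57.0 in controls, and overlapped between the groups. All 6 ratios were chosen after the values were seen, and the groups did not overlap in the other 5. An exact two-sided permutation test over the 6 libraries gave p = 0.3 for Hsd11b1 to Fkbp5 and p = 0.1 for each of the other 5 (n = 3 each), the smallest value this design allows.

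**Figure D4:**
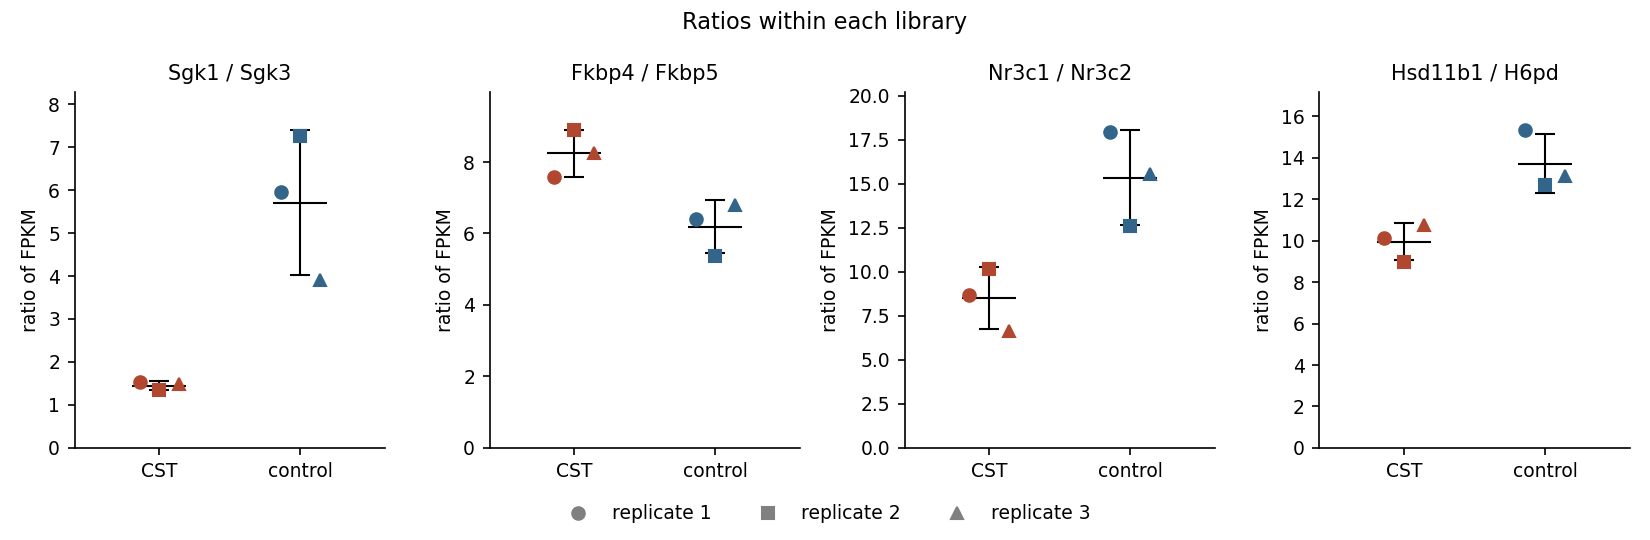
Ratios of FPKM within each library for 4 of the 6 pairs, Sgk1 over Sgk3, Fkbp4 over Fkbp5, Nr3c1 over Nr3c2 and Hsd11b1 over H6pd, with CST at the left and control at the right; points are libraries, the long bar is the mean and the whiskers are 1 SD (n = 3). The Sgk1 to Sgk3 ratio is at or below 1.53 under CST and at or above 3.91 in controls.

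Among the relatives of Tsc22d3, Tsc22d2 fell 1.67-fold to 3.17 ± 0.40 FPKM under CST (limma adjusted p = 0.0084), whereas Tsc22d1 averaged 55.5 ± 2.68 FPKM under CST and 61.5 ± 5.30 FPKM in controls and was not called. Of 13 tested FK506-binding protein genes other than Fkbp5, 6 rose, 1 fell and 6 were not called, where 16.4% of all tested genes were called higher. The rises included Fkbp7 (1.58-fold), Fkbp14 (1.34-fold) and Fkbp9 (1.30-fold), whose proteins reside in the endoplasmic reticulum, and Fkbp1b, which reached 1.52 ± 0.39 FPKM under CST, against 0.77 ± 0.13 FPKM in controls. The count of rises was 3 without CST replicate 2 or control replicate 3, and the 1 fall, Fkbp1a, was lost in 7 of 14 settings. Of 30 tested genes listed under the BTB zinc finger prefix, 4 rose and 6 fell. Among all tested genes, 16.4% were called higher and 19% lower. Zbtb7c rose 2.14-fold and Zbtb47 1.56-fold, while Zbtb2 fell 1.76-fold and Zbtb17, the MYC partner MIZ-1, 1.64-fold. Another of the 4 rises was Zbtb8os, which is named for lying opposite Zbtb8a and encodes no zinc finger.

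The libraries held summed FPKM of 309497 to 348238 under CST and 332716 to 347117 in controls, and depth in reads is unknown. Of 17 nucleus pulposus markers 16 were in the files and 10 were tested, of which 7 rose and 1 fell. Among all tested genes, 16.4% were called higher and 19% lower. The rises were Krt8, Pax1, Foxf1, Car3, Ncam1, Lgals3 and Sox9, and the fall was Cdh2. Acan (38.6 ± 3.18 FPKM under CST, 31.1 ± 10.6 FPKM in controls) and Cd24 were not called. Shh was listed at 0 throughout, and T and Col2a1 stayed under 1 FPKM in 6 and 5 libraries. Krt18, Krt19 and Car12 also lay under 1 FPKM. Col2a1 was higher under CST without overlap (0.90 ± 0.49 FPKM, against 0.042 ± 0.029 FPKM in controls). Summed FPKM of 10 macrophage and leukocyte markers was 20.1 to 23.4 under CST and 17.6 to 24.1 in controls, most of it from Cd14, which was not called, with Cd3e and Cd79a at 0 and Ptprc at or below 0.049. Of the 4 tested, 1 rose and 2 fell: Lyz2 averaged 3.30 ± 1.62 FPKM under CST and 0.25 ± 0.14 FPKM in controls, Cd68 0.63 ± 0.15 FPKM under CST and 1.52 ± 0.42 FPKM in controls, and Adgre1 1.31 ± 0.10 FPKM under CST and 3.71 ± 1.92 FPKM in controls. The 7 adipocyte markers, of a cell type rich in Hsd11b1, summed to 0.55 to 1.20 under CST and 1.92 to 3.74 in controls. Adipoq was at 0. Fabp4, most of the control sums, was at 0.086 to 0.62 under CST and 1.66 to 3.59 in controls. Pparg went the other way, at 0.20 ± 0.02 FPKM under CST and 0.10 ± 0.03 FPKM in controls, without overlap. Cfd was above 0 only in CST replicates 1 and 2 (0.26 and 0.35 FPKM). The 8 endothelial markers summed to 0.92 to 1.08 FPKM under CST and 1.36 to 1.91 FPKM in controls, with Cdh5 and Emcn at 0 and none of the 8 past the filter. Flt1 was lower (0.48 ± 0.02 FPKM under CST, 1.43 ± 0.23 FPKM in controls), while Pecam1 (0.27 ± 0.03 FPKM under CST, 0.069 ± 0.083 FPKM in controls) and Erg (0.080 ± 0.014 FPKM under CST, 0.022 ± 0.006 FPKM in controls) were higher. The 7 annulus and tendon fibroblast markers summed to 5177 to 6454 FPKM under CST and 1949 to 2497 FPKM in controls, most of it from Col1a1. Whether these differences have a part in the results was not tested.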

How the data were processed

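RNA of 3 CST and 3 control samples was sequenced as Illumina libraries after TRIzol extraction, per the labels' protocols. The authors' deposited values were taken as FPKM: they are not whole numbers, and the submitters' processing notes name Cufflinks, Cuffdiff 2.2.1, HISAT2 2.0.4, cutadapt 1.9.3 and DESeq. What each did, the annotation and any library scaling are not given in the sources used here. Those notes name 1 build, the human hg19, while 85.1% of the 22573 symbols used matched the GRCr8 rat gene table, so no coordinates of the files were used. Of 22601 rows, 27 whose symbol had become a calendar date and 1 broken row were left out. FPKM keeps no read totals, so no counting interval was computed. No pair of libraries shared a value at or above 1 FPKM often enough to be a copy (0% equal values).

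Genes averaging 1 FPKM or more were fitted on log2(FPKM + 1) with limma 3.58.1 in R 4.3.3, with trended, robust moderation of variances; tests were two-sided, with Benjamini-Hochberg adjustment over all 10180 genes and a threshold of 0.05. Fold changes in log2 understate the change of low genes. Folds are ratios of group means of the deposited values, taken as FPKM, given only where both group means reach 1. The fit was also run on simulated data, drawn independently for each gene and library. Those data hold no deviation shared by a whole library, so they cannot show how sound the calls are where libraries deviate as a whole. The members and lists were chosen with earlier results of these data known. The named genes are all 5 members, the up to 4 called genes of each other list with the smallest p, every tested gene of lists with 5 or fewer, Nr3c1, Nr3c2, Hsd11b2 and H6pd, and the 3 most correlated genes of each tested member; Cebpd, Dusp1, Klf15, Bcl6, Per1, Mt1, Anxa1, Glul, Hsp90aa1, Ep300, Stip1, Sgk2, Sgk3, Fkbp1a, Fkbp4, Zbtb8os, Il6, Ndrg1, Cyp11a1, Cyp11b2, Cyp21a1, Cyp17a1 and the cell type markers were added after their values were seen. Hsp90ab1, Hspa8 and Crispld2 were also added with their values known. Alternatives changed the pseudocount, filter, scaling, variance model and block, and left out each library.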

Additional observations from a re-analysis of the deposited data

How the results depend on the processing

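Sgk1 kept its direction and its call in all 14 alternatives (log2 fold change -1.32 to -0.87, limma adjusted p = 0.00071 to 0.019). Fkbp5 stayed negative and not called in its 13 (-0.12 to -0.02). Hsd11b1 stayed negative (-0.37 to -0.23) but was no longer called without a filter (log2 fold change -0.30, limma adjusted p = 0.062), after quantile normalization (-0.23, 0.053) and with the replicate number as a block (-0.30, 0.053), nor in 4 of the 6 settings that leave out 1 library (-0.34 to -0.23 in these). Tsc22d3 ran from -0.61 to -0.24 with 1 library left out and passed only without control replicate 3. The number of called members, 2 as reported, was 1 in these 3 settings and 1 to 2 with 1 library left out. The cause was not tested. The number of genes called over the whole table was 2363 to 3572 with 1 library left out, lowest without control replicate 1, against 3608 as reported. Calls higher were 46.3% of all calls as reported, 55.5% after quantile normalization and 57.3% with libraries scaled to equal summed FPKM. The near-zero change of Nr3c2 ran from -0.039 to 0.09 with 1 library left out and was negative in 4 of these settings. Same-numbered CST and control libraries deviated from their group means with correlations of 0.033, 0.108 and -0.116. Different-numbered ones had -0.21 to 0.12, so no pairing by number was seen. With 3 libraries a group this cannot exclude pairing. The block moved the count of called genes to 3116. Of the other tested list genes named in the report, Stip1 and Fkbp1a (7 of 14), Rictor (10 of 13), Adgre1 (6 of 13), Nedd4 and Ep300 (4 of 14), Fkbp1b (4 of 13), Mt1 (3 of 14), Per1 (2 of 13), Fkbp4 and Ndrg1 (2 of 14) and Ppid and Hsp90aa1 (1 of 14) changed their call in that many alternatives. The uncalled change of Srd5a3 turned to 0.013 after quantile normalization. Hsp90ab1, Hspa8 and the genes named from the nucleus pulposus and the annulus and tendon lists were not followed over the alternatives. With no read counts, precision rests on the spread of 3 libraries a group.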

Other observations

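Control replicate 3 had the lowest value of the 3 controls in 3 of the 4 tested members (Sgk1, Tsc22d3 and Fkbp5) and in 10 of 18 other glucocorticoid-induced genes, or 55.6%, against 36.9% of all 10180 tested genes. Cebpd, which rose under CST, stood at 51.0 FPKM in that library and at 71.3 and 103 FPKM in the other 2 controls, and Klf15, which fell, at 7.29 FPKM against 9.51 and 10.2 FPKM. Among those 18 genes, control replicates 1 and 2 were lowest in 3 and 5. This count was made after the values were seen. The labels give no harvest time, and the cause of the difference was not tested.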
